A study of Mus musculus with 12 samples.

Results

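The genes for the proteins of the mitochondrial ribosome were examined as a family in the hearts of mice with repressed CELF splicing activity. A gene was counted as a member if the symbol of its probe began with Mrpl, for the large subunit, or Mrps, for the small subunit, followed by a digit. Each gene was represented by its feature with the highest mean over the 12 arrays, where a feature is 1 set of probe IDs that carried identical values on every array. This gave 76 genes among 30854 features, 48 of the large subunit and 28 of the small subunit. Mrps18a and Mrps30 carry small subunit names, although their proteins sit in the large subunit in solved structures, and both were counted by name. Mrps9, Mrpl21 and Mrpl47 each had a second feature, and every other member had 1.

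MHC-CELF∆ mice make a nuclear dominant negative CELF protein from an α-myosin heavy chain promoter, which is active in postnatal heart muscle. The arrays held total RNA from whole hearts of untreated FVB/N females aged 3 weeks, 1 heart per array. There were 3 hearts of the MHC-CELF∆-574 (mild) line, in which less of the protein is made, and 3 of the MHC-CELF∆-10 (severe) line, in which more is made. Both lines are kept as hemizygotes, and 3 wild type littermates of each line gave 6 wild type hearts, which carry no transgene. Each level of the dominant negative protein is represented by 1 line, so level and line cannot be told apart. Whole hearts also contain cells in which the promoter is silent, and in such RNA fewer cells of a type and less RNA per cell cannot be told apart.

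The mitochondrial ribosome translates the few messenger RNAs of the mitochondrial genome, all of which encode core subunits of the oxidative phosphorylation complexes. Its own proteins are encoded in the nucleus, made in the cytosol and imported, and they assemble on ribosomal RNAs transcribed inside the organelle. Some members descend from bacterial ribosomal proteins and others exist only in mitochondrial ribosomes. The heart depends heavily on oxidative phosphorylation, and inherited defects in several members, among them MRPL3, MRPL44 and MRPS22 in humans, cause cardiomyopathy.

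Promoter sequence was looked at because many of the members were lower together in the severe line. Nuclear genes of mitochondrial function are also known for binding sites of NRF1, of ETS factors such as GABP, and of YY1. Whether such sites have a part in the change was not tested. RefSeq promoter windows of GRCm38.p6, running from 250 bases before the start of a gene to 50 bases after it, were matched by gene ID for 67 of the 76 members. Those not matched were Mrpl4, Mrpl13, Mrpl15, Mrpl19, Mrpl38, Mrpl54, Mrps28, Mrps34 and Mrps35. The 250 bases before the start are printed for 4 genes on which the results below turn. Mrps9 was lower in both lines, Mrpl3 and Mrps22 were lower in the mild line, and Mrpl16 was lower in the severe line and differed between the lines. Capitals mark exact matches on either strand to an NRF1 core site (GCATGCGC), an ETS site (CCGGAAGT), a YY1 site (AAGATGGC) or a GC box (GGGCGG).

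Mrps9 (GRCm38.p6, chr1:42850983-42851232, plus strand): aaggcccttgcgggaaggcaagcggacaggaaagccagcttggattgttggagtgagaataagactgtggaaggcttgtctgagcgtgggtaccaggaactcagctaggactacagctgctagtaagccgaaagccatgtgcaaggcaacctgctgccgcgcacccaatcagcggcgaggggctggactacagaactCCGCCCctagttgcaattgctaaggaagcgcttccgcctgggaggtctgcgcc

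Mrpl3 (GRCm38.p6, chr9:105053018-105053267, plus strand): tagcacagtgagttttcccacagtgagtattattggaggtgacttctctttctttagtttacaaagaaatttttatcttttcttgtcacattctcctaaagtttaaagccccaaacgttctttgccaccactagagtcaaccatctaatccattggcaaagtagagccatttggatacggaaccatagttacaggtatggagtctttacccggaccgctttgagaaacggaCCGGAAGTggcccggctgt

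Mrps22 (GRCm38.p6, chr9:98601680-98601929, minus strand): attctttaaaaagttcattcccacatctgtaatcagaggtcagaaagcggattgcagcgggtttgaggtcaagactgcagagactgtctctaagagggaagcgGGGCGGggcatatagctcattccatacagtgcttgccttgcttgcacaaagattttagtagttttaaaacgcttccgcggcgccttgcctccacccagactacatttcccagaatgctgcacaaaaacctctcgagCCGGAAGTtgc

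Mrpl16 (GRCm38.p6, chr19:11770165-11770414, plus strand): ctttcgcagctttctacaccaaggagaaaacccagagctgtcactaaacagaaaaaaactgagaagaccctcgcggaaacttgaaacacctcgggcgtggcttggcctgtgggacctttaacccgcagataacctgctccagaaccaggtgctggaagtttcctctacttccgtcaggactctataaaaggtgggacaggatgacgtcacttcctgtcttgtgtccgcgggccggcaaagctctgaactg

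The Mrps9 stretch held 1 GC box, on the opposite strand and 53 bases before the start. Mrpl3 held 1 ETS site, 19 bases before the start, and Mrps22 held the same letters 11 bases before the start and a GC box 147 bases before it. No match to the 4 motifs lay in the Mrpl16 stretch.

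Over the whole windows, the NRF1 core site occurred in 8 of the 67 members (11.9%), against 3.6% of 17491 protein-coding genes. The ETS site occurred in 11 (16.4%, against 5.29%), the YY1 site in 12 (17.9%, against 3.22%) and the GC box in 33 (49.3%, against 46.3%). Matches to different motifs did not overlap in any member. At least 1 of the first 3 motifs was present in 28 members (41.8%) and in 11.4% of protein-coding genes. Among the 15 members with a window that were lower in the severe line, 6 held 1 of these 3 motifs (40%), and among the other 52 members 22 did (42.3%). These matches describe letters in a window and are not evidence of binding.

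Values are log2 signals after background correction and quantile normalization, on which the median of every array was 6.28. The median raw intensity of the severe line arrays (116 to 119) lay above that of all other arrays (103 to 112). As a check of the labels, 1 Celf4 feature read between 11.25 and 11.90 in the 6 transgenic hearts and between 5.79 and 6.14 in the 6 wild type hearts. It was taken, of 4 Celf4 features, for the largest rise in the mild line, so the choice itself used the mild line labels. The other Celf4 features are not given here. Of 7 heart muscle markers measured, Myh6, Myl2, Actc1 and Actn2 had wild type means from 14.01 to 14.96. Over all 7, the median of a wild type array lay from 13.70 to 14.18 and the mean from 12.93 to 13.22. Each line was set against the 6 wild type hearts with moderated linear models in limma, and a gene was called at a Benjamini-Hochberg adjusted p under 0.05 over all features, at any fold change. Nothing in the labels says more of the hearts of a group than that they are separate samples, and p-values measure the spread between them.

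Most members were well measured. In 64 of the 76 the mean signal was 8 or more, and in 3 it was at or below the array median. Brightest in wild type hearts were Mrpl42, Mrpl12 and Mrpl33 of the large subunit, with means of 12.83, 12.43 and 12.31, and Mrps24, Mrps34 and Mrps17 of the small subunit, with means of 13.10, 12.13 and 11.77. The dimmest were Mrpl32, Mrpl19 and Mrpl39 (6.03, 6.09 and 6.80) and Mrps14, Mrps15 and Mrps5 (6.22, 7.47 and 7.49). A probe's brightness depends on its sequence, so these values do not rank the genes by transcript number. Changes of Mrpl32, Mrpl19 and Mrps14, whose signals could not be told from the bulk of the array, carry little information.

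In the severe line the family was lower. Of 76 members, 17 fell and none rose at an adjusted p under 0.05 in limma, 9 in the large subunit and 8 in the small subunit. Of all features, 1.56% were called lower and 1.75% higher. Calls were more frequent among bright features, and of those with a mean signal of 8 or more 6.89% were called lower, against 17 of the 64 members that bright (26.6%). The fold changes were small, and the called members were between 17.3% and 34.4% lower than in wild type hearts. The median log2 fold change was -0.18 over the large subunit and -0.16 over the small subunit, against 0.00 over all features, and 72 of the 76 values were below 0. All 3 severe line arrays lay below all 6 wild type arrays in 27 members, which was true of 3.63% of all features. Of the 64 bright members 24 (37.5%) were without overlap in this direction, against 10.1% of bright features, and no member had all severe line arrays above all wild type arrays.

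The same shift was visible in each heart. Averaged over the 48 large subunit members, the severe line arrays lay 0.24, 0.16 and 0.19 log2 below the wild type mean, while the wild type arrays lay between -0.05 and 0.04 of it. Over the 28 small subunit members the severe line arrays lay 0.24, 0.12 and 0.18 below, and the wild type arrays between -0.03 and 0.03. No severe line array overlapped a wild type array in either subunit. Severe line replicate 1 was the lowest of its group in both subunits, and the number of calls rested on it. Without it 2 members, Mrpl14 and Mrps9, and 489 features were called, and without replicate 3 there were 9 members and 660 features. With a smaller background offset of 16 in place of 50, 1 member and 493 features were called. Median scaling in place of quantile normalization gave 36 members and 1127 features, and subunit medians of -0.33 and -0.28. The medians kept their direction without any 1 array, from -0.19 to -0.17 for the large and from -0.19 to -0.13 for the small subunit.

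**Figure D1:**
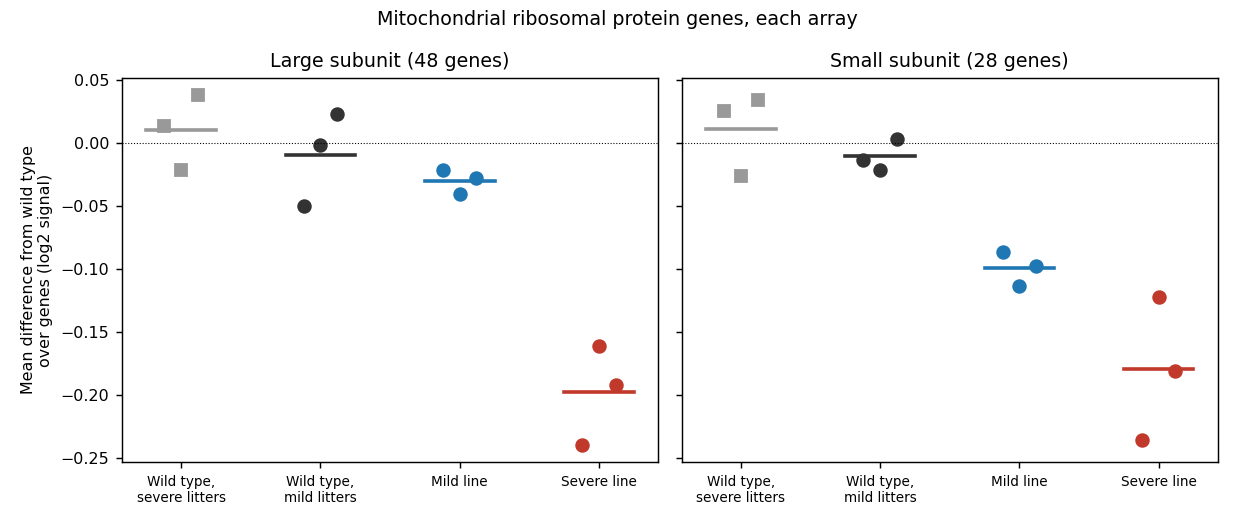
Mean difference from wild type in log2 signal (vertical axis) over the members of each subunit, with 1 point per array, a bar at each group's mean and the groups along the horizontal axis. The 3 severe line arrays lie below every other array in both subunits, and the 3 mild line arrays lie below the wild type arrays in the small subunit only.

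Among large subunit members, those near the peptidyl transferase centre, where the peptide bond forms, included 2 of the called genes. Mrpl16, whose protein helps to position transfer RNA there, read 8.29, 8.59 and 8.68 in the severe line, against a lowest, median and highest of 8.73, 9.07 and 9.21 in wild type hearts. The severe line arrays lay below all wild type arrays, and the log2 fold change was -0.49 (SE 0.111, adjusted p = 0.0173, limma). Against the severe line's own littermates alone the Mrpl16 value was -0.31 and was not called (adjusted p = 0.133, limma). Mrpl27 read 9.95, 10.03 and 10.22 against 10.26, 10.31 and 10.50, a log2 fold change of -0.29 (SE 0.076, adjusted p = 0.044, limma). Mrpl2 and Mrpl3, which also lie around this centre, had values of -0.17 and -0.15 that did not pass.

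At the exit tunnel, through which the new chain leaves, Mrpl22 read 9.05, 9.45 and 9.47 in the severe line and 9.58, 9.71 and 9.84 (lowest, median and highest) in wild type hearts. Its log2 fold change was -0.38 (SE 0.094, adjusted p = 0.0275, limma), and replicate 1 lay far below the other severe line hearts. Mrpl4, Mrpl23 and Mrpl24, its neighbours at the tunnel, had values of -0.24, -0.19 and -0.30 that did not pass. Mrpl45, which holds the exit site to the inner membrane, is a dim member with a value of -0.29 (SE 0.096, adjusted p = 0.13, limma).

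At the stalks, which handle transfer RNA and translation factors, Mrpl1 was lower, with 8.66, 8.60 and 8.69 in the severe line against 8.85, 8.95 and 9.11 in wild type hearts. Its log2 fold change was -0.31 (SE 0.072, adjusted p = 0.0194, limma), and the severe line arrays did not overlap the wild type arrays. Mrpl10, Mrpl11 and Mrpl12, which form the factor-binding stalk and its base, had values of -0.14, -0.11 and -0.18 that did not pass. Mrpl12, whose protein is also known to bind the mitochondrial RNA polymerase, read 12.22, 12.34 and 12.17 in the severe line and 12.28, 12.45 and 12.57 in wild type hearts, so that the groups overlapped.

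The largest fold change of the family was that of Mrpl55, the mitochondrial counterpart of bacterial L31. Its severe line arrays read 8.52, 8.86 and 8.64, against 8.79, 9.29 and 9.54 in wild type hearts. The log2 fold change was -0.61 (SE 0.125, adjusted p = 0.00823, limma), with an overlap of 1 severe line and 1 wild type array. Mrpl18, the relative of a bacterial protein that binds 5S ribosomal RNA, read 9.00, 9.19 and 9.16 against 9.26, 9.43 and 9.58 and fell by 0.32 (SE 0.073, adjusted p = 0.0188, limma).

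Mrpl30 had the lowest adjusted p of the family in the severe line. It read 11.10, 11.38 and 11.32 in that line and 11.55, 11.69 and 11.92 in wild type hearts, a log2 fold change of -0.42 (SE 0.085, adjusted p = 0.00712, limma). Mrpl14, whose protein lies at the face that joins the small subunit, read 10.38, 10.41 and 10.33 against 10.59, 10.73 and 10.78 and fell by 0.32 (SE 0.067, adjusted p = 0.0089, limma). Its severe line arrays were close together and lay below all 9 other arrays. Mrpl42, a mitochondria-specific member, read 12.31, 12.64 and 12.39 against 12.71, 12.80 and 13.02 and fell by 0.38 (SE 0.084, adjusted p = 0.0148, limma).

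In the small subunit, Mrps12, the decoding centre protein in which bacterial streptomycin resistance arises, read 9.86, 9.88 and 9.75 in the severe line and 10.09, 10.17 and 10.24 in wild type hearts. It fell by 0.33 (SE 0.073, adjusted p = 0.0143, limma) and the groups did not overlap. Mrps9, whose bacterial counterpart reaches the transfer RNA in the peptidyl site with its tail, read 10.96, 10.94 and 10.97 in the severe line and 11.08, 11.33 and 11.41 in wild type hearts. Its log2 fold change was -0.35 (SE 0.071, adjusted p = 0.00727, limma). The 3 severe line hearts were close to each other (SD 0.013) and below all wild type hearts. The second, dim Mrps9 feature had a wild type mean of 6.07, near the array median, and a value of -0.03 (adjusted p = 0.929, limma).

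Mrps16, a bacterial-type protein whose inherited loss causes a respiratory chain disorder in humans, read 10.00, 10.38 and 10.17 against 10.34, 10.60 and 10.75 and fell by 0.39 (SE 0.091, adjusted p = 0.0214, limma). One severe line heart lay within the wild type range. Mrps18c is 1 of 3 homologs of bacterial S18. It read 9.52, 9.64 and 9.88 against 9.79, 10.03 and 10.08 and fell by 0.32 (SE 0.085, adjusted p = 0.0454, limma), again with 1 severe line heart inside the wild type range. The values of Mrps18a and Mrps18b were -0.18 and -0.05 (adjusted p = 0.181 and 0.867, limma), and the differences between the paralogs were not tested.

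The other called members of the small subunit were Mrps25, Mrps28, Mrps33 and Mrps35. Mrps35, a mitochondria-specific protein, read 9.47, 9.65 and 9.83 in the severe line against 9.96, 9.99 and 10.31 and had a log2 fold change of -0.39 (SE 0.089, adjusted p = 0.0167, limma). Mrps25 read 7.86, 8.07 and 7.81 against 8.08, 8.29 and 8.46 (log2 fold change -0.36, adjusted p = 0.0213, limma). In both genes all severe line arrays were below the wild type arrays, for Mrps25 narrowly (8.071 against 8.078). Mrps28, related to bacterial S1, fell by 0.32 and Mrps33 by 0.27 (adjusted p = 0.0263 and 0.0261, limma), both without overlap.

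**Figure D2:**
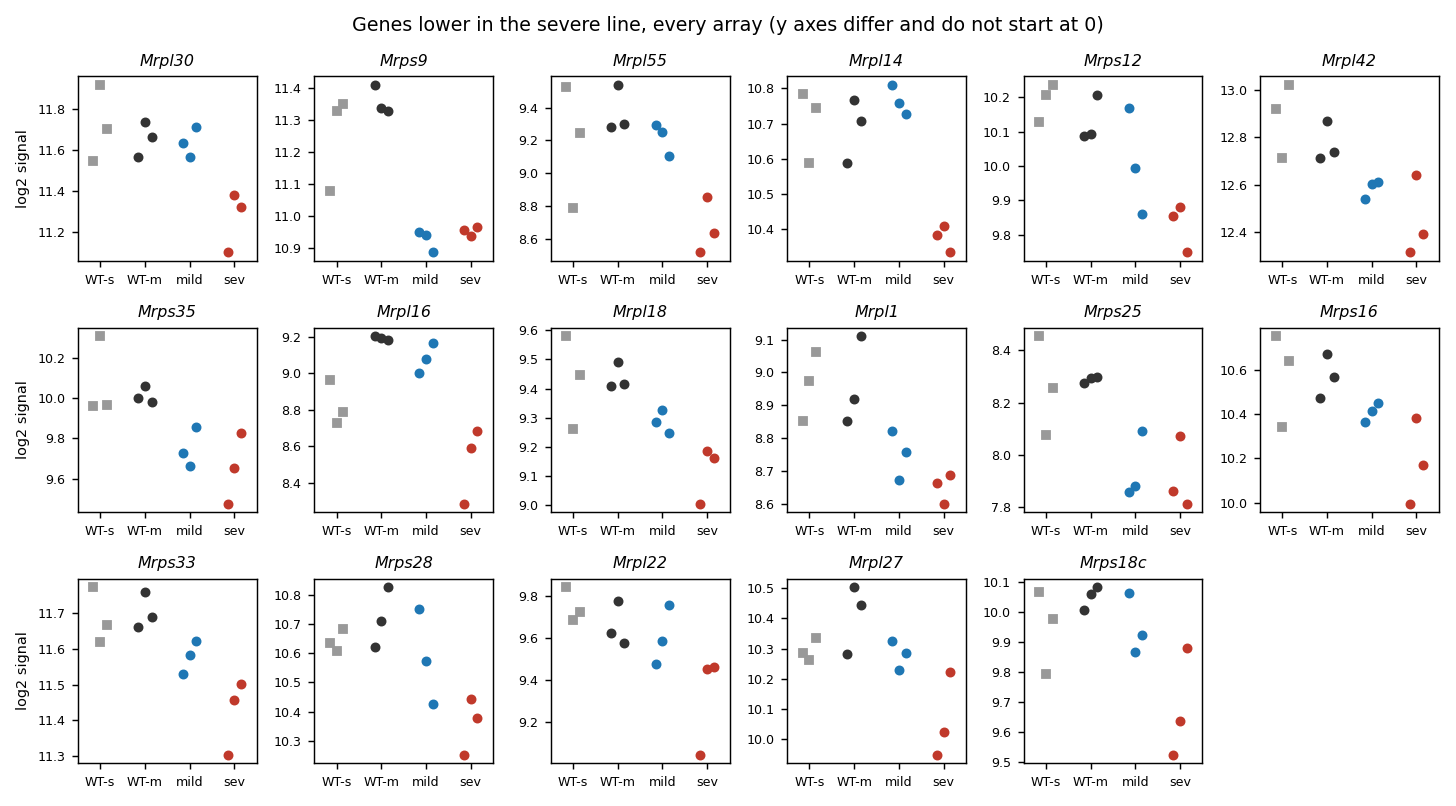
Log2 signal (vertical axes, which differ and do not start at 0) in every array for the 17 genes lower in the severe line, ordered by adjusted p, with wild type littermates of the severe line (WT-s) and of the mild line (WT-m), the mild line and the severe line (sev) along the horizontal axis. In 14 of the 17 genes the 3 severe line points lie below all 6 wild type points.

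The exceptions in the severe line were few. The 4 members with a value above 0 were Mrps34 (0.13), Mrpl17 (0.05), Mrpl49 (0.02) and the dim Mrpl32 (0.00), none of which passed, and Mrpl53 (-0.01), Mrps10 (-0.01) and Mrps18b (-0.05) were close to 0. For Mrpl49 the 95% confidence interval ran from -0.14 to 0.17 and for Mrps34 from -0.04 to 0.30, which leaves out a fall of the size seen in the called genes. By origin, 13 of 48 bacterial-type members fell, with a median log2 fold change of -0.18, and 4 of 28 mitochondria-specific members fell, with a median of -0.13. In the large subunit 8 of 30 bacterial-type and 1 of 18 mitochondria-specific members fell, with medians of -0.20 and -0.13. In the small subunit 5 of 18 and 3 of 10 fell, with a median of -0.16 in each class. The difference between these classes was not tested.

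In the mild line the family changed less, and in both directions. At an adjusted p under 0.05 in limma, 4 members fell, Mrps9, Mrps25, Mrps22 and Mrpl3, and 2 rose, Mrpl54 and Mrpl20, where 1.93% of all features were called lower and 1.62% higher. Of the bright features 7.68% were called lower and 6.35% higher. Of the 64 bright members 4 fell (6.25%) and 2 rose, which is not above the shares of bright features. The median log2 fold change was -0.06 over the large subunit and -0.09 over the small subunit, and 51 of 76 values were below 0. The mild line arrays lay below all wild type arrays in 9 members and above them in 2, against 3.92% and 3.6% of all features, and 10.8% of bright features lay below. Averaged over the small subunit the mild line arrays lay 0.09, 0.11 and 0.10 below the wild type mean, outside the wild type range, and over the large subunit they lay 0.02, 0.04 and 0.03 below it, inside that range. The large subunit median ran from -0.070 to -0.032 when 1 array was left out (-0.032 without mild line replicate 2), and the small subunit median from -0.11 to -0.070. The count of 6 members, beside 1096 features, rested on single arrays. It was 1, 2 and 3 when mild line replicates 1, 2 and 3 were left out in turn, beside 748, 623 and 714 features, 2 and 3 without the first and second littermate of the mild line, and 2 without the first or the third littermate of the severe line, beside 962 to 1023 features. With the offset of 16 no member was called, where 620 features were.

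Mrps9 fell most clearly. The mild line hearts read 10.95, 10.94 and 10.89, all below the lowest wild type heart at 11.08, and the log2 fold change was -0.38 (SE 0.071, adjusted p = 0.0031, limma), or 23.1% lower. Its second feature read 0.04 above wild type (adjusted p = 0.914, limma). Mrps25, a mitochondria-specific protein, read 7.86, 7.88 and 8.09 against 8.08, 8.29 and 8.46, a log2 fold change of -0.33 (SE 0.085, adjusted p = 0.0326, limma).

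Mrps22 and Mrpl3, both linked to cardiomyopathy in humans, were the other genes that fell. Mrps22 read 8.54, 8.54 and 8.47 in the mild line against a lowest, median and highest of 8.66, 8.85 and 8.97, a log2 fold change of -0.31 (SE 0.079, adjusted p = 0.0326, limma). Mrpl3 read 10.04, 10.10 and 10.09 against 10.22, 10.33 and 10.42, a log2 fold change of -0.24 (SE 0.063, adjusted p = 0.0435, limma). Neither overlapped wild type. In the severe line their values were -0.11 and -0.15 and did not pass, and the lines were not shown to differ (adjusted p = 0.384 for Mrps22 and 0.705 for Mrpl3, limma). For Mrpl44, another of these disease genes, the values were -0.17 (mild) and -0.15 (severe), with 95% confidence intervals of -0.39 to 0.06 and -0.37 to 0.08.

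Mrpl54 and Mrpl20 rose in the mild line. Mrpl54, a mitochondria-specific member, read 11.23, 11.10 and 11.09 in the mild line, above all wild type hearts at 10.59, 10.80 and 10.93, a log2 fold change of 0.36 (SE 0.076, adjusted p = 0.00941, limma). Mrpl20, whose bacterial counterpart is needed early in assembly of the large subunit, read 9.42, 9.27 and 9.19 against 8.73, 8.89 and 9.24, a log2 fold change of 0.37 (SE 0.098, adjusted p = 0.0396, limma), and 1 mild line heart lay within the wild type range. The mild line's littermates read 0.26 above the severe line's in Mrpl20. Neither gene was called against the mild line's own littermates, where the value of Mrpl20 was 0.24 (adjusted p = 0.326, limma). With median scaling in place of quantile normalization both calls ended, and 5 members were called lower and none higher. Mrpl52 and Mrpl33 had values of 0.34 and 0.21 that did not pass (adjusted p = 0.131 and 0.233, limma), and so had Mrps15 (0.16), Mrps21 (0.15), Mrps6 (0.09) and Mrps34 (0.06). At the other end, Mrpl9 (-0.29), Mrpl42 (-0.24), Mrpl34 (-0.23) and Mrps35 (-0.30) had adjusted p from 0.0837 to 0.207 in limma.

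**Figure D3:**
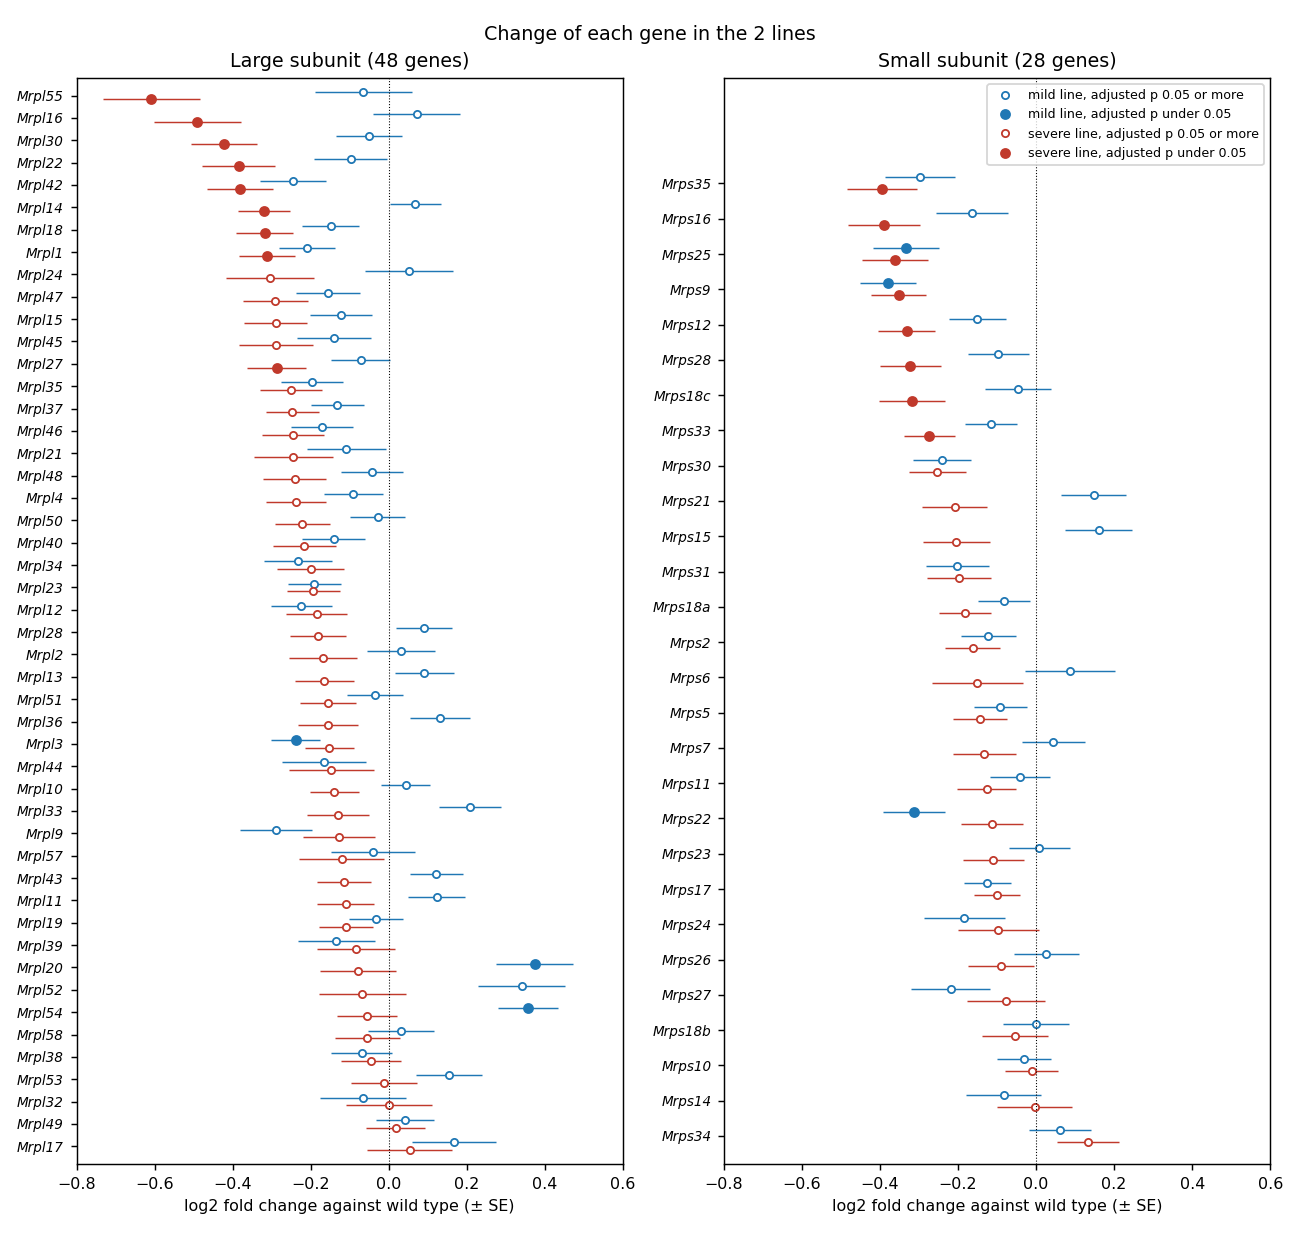
Log2 fold change of each of the 76 genes against the 6 wild type hearts (horizontal axis, bars ± SE), mild line in blue and severe line in red, ordered by the severe line value, with filled points at an adjusted p under 0.05 in limma. Nearly all severe line values lie left of 0, from -0.61 to 0.13, whereas the mild line values run from -0.38 to 0.37.

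When the lines were compared directly, 3 members were higher in the mild line and none was lower at an adjusted p under 0.05 in limma, all in the large subunit. Of all features 0.596% were called higher and 0.771% lower in this comparison, and of bright features 2.23% were called higher. Mrpl14 read 10.81, 10.76 and 10.73 in mild line hearts against 10.38, 10.41 and 10.33 in severe line hearts, a difference of 0.39 (SE 0.077, adjusted p = 0.0129, limma). Mrpl54 differed by 0.41 (SE 0.088, adjusted p = 0.0212, limma), with 11.23, 11.10 and 11.09 against 10.63, 10.79 and 10.77. Mrpl16 differed by 0.56 (SE 0.129, adjusted p = 0.036, limma), with 9.00, 9.08 and 9.16 against 8.29, 8.59 and 8.68. The wild type littermates of the lines differed in Mrpl16 by 0.37 in the same direction. Measured against each line's own littermates, the Mrpl16 difference was 0.19 (adjusted p = 0.835, limma) and the Mrpl14 difference 0.41 (SE 0.110, adjusted p = 0.24, limma). None of these genes overlapped between the lines, and Mrpl14 and Mrpl16 were near wild type in the mild line whereas Mrpl54 was near wild type in the severe line. Mrps9, with a difference of -0.03 (95% confidence interval -0.20 to 0.15), and Mrps25, with 0.03 (-0.18 to 0.23), had like values in both lines. Against 422 features called here, no member was called without severe line replicate 1 (195 features), without mild line replicate 1 (254 features) or with the offset of 16 (169 features). One was called without mild line replicate 2 or 3 (265 and 203 features), and 6 were called when severe line littermate 2 was left out (486 features).

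**Figure D4:**
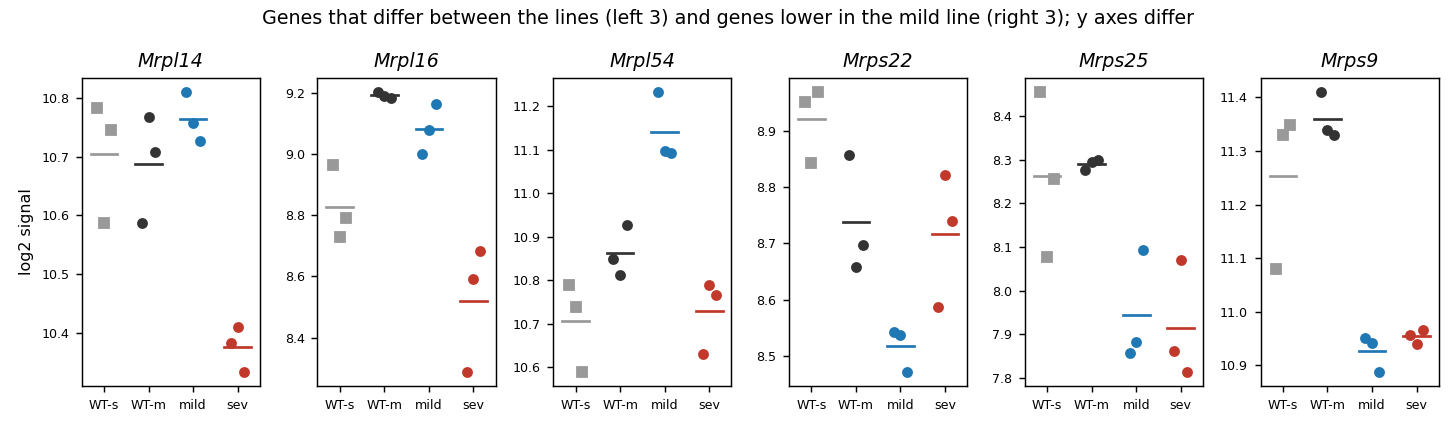
Log2 signal (vertical axes, which differ and do not start at 0) in every array, with bars at the group means, for the 3 genes that differed between the lines and for 3 genes lower in the mild line, grouped as wild type littermates of the severe (WT-s) and mild (WT-m) line, mild line and severe line (sev). Mrpl14 and Mrpl16 are low in the severe line, Mrpl54 is high in the mild line, and Mrps9 lies near 10.9 to 11.0 in both lines.

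The wild type hearts of the litters did not differ in any member at an adjusted p under 0.05 in limma, where 0.0875% of features did. At an unadjusted p under 0.05, 4 members were higher and 9 lower in the mild line's littermates. At that limit 1506 of all 30854 features were higher and 1568 lower, and of 4803 bright features 480 were higher and 408 lower. The most different was Mrpl16, with means of 9.19 in the mild line's and 8.83 in the severe line's littermates (difference 0.37, adjusted p = 0.175, limma). Against its own littermates alone, the severe line was lower in 11 members (1.07% of features were called lower), 6 of which were among the 17. The rest of the 17 were not called in this way. Among these were Mrpl1, Mrpl16, Mrpl18 and Mrps9, with values of -0.31, -0.31, -0.31 and -0.30 (adjusted p = 0.0665, 0.133, 0.0721 and 0.0599, limma). Against its own littermates, the mild line was lower in Mrps9 (1.27% of features were called lower) and higher in none. No member was called for a difference between the lines' effects measured in this way, against 0.266% of features, so that the differences between the lines rest on the direct comparison. Mrpl15, Mrpl35, Mrpl37, Mrpl45 and Mrpl46 were called against the severe line's own littermates only.

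Other genes of mitochondrial protein synthesis were counted beside the same backgrounds, 1.56% of all and 6.89% of bright features lower in the severe line and 1.93% and 7.68% in the mild line. Of 4 further mitoribosomal proteins without Mrp names, Ptcd3, a small subunit protein with pentatricopeptide repeats, read 8.15, 8.35 and 8.45 in the severe line and 8.78, 8.97 and 9.11 in wild type hearts. Its log2 fold change was -0.64 in the severe line (SE 0.084, adjusted p = 0.000147, limma) and -0.30 in the mild line (adjusted p = 0.0557). Dap3, a GTP-binding protein of the small subunit, had values of -0.16 (severe) and -0.20 (mild), and neither passed.

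Of 17 translation and messenger RNA factors of the organelle, 5 fell in the severe line and 3 in the mild line, and none rose. Tufm, the elongation factor that delivers transfer RNA, fell by 0.29 in the severe line (adjusted p = 0.0263, limma) and by 0.26 in mild line hearts (adjusted p = 0.0494). Gfm2, which recycles ribosomes, fell by 0.32 and 0.28 (adjusted p = 0.0132 and 0.032), and Lrpprc, which stabilizes mitochondrial messenger RNA, fell by 0.27 and 0.28 (adjusted p = 0.025 and 0.0195, limma). Slirp, the partner of Lrpprc, fell by 0.52 in the severe line (adjusted p = 0.0132) and stood at 0.02 in the mild line, and the translocation factor Gfm1 fell by 0.35 in the severe line (adjusted p = 0.0291, limma).

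Of 23 assembly factors, 1 fell in the severe line and 3 in the mild line, shares of 4.35% and 13%. Tfb1m, which methylates the small ribosomal RNA, fell by 0.40 in the severe line (adjusted p = 0.0125, limma). Nsun4, another methyltransferase of that RNA, fell by 0.45 in the mild line (adjusted p = 0.000191) and was lower there than in the severe line (difference -0.33, adjusted p = 0.0358, limma). Mettl17 and the ribosomal RNA methyltransferase Mrm1 were lower in mild line hearts by 0.36 and 0.40 log2 (limma adjusted p = 0.0138 and 0.0164). Of 16 mitochondrial tRNA synthetases, Cars2 and Ears2 fell in both lines, Ears2 by 0.56 in the mild and 0.27 in the severe line, and Vars2 fell in the mild line by 0.33 (adjusted p from 1.79e-05 to 0.0245, limma).

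Of 11 genes that transcribe and copy mitochondrial DNA, Tfam, which packages that DNA and starts its transcription, and Mterf2 fell in the severe line by 0.28 and 0.33 (adjusted p = 0.0237 and 0.0178), and Polrmt, the RNA polymerase, fell in the mild line by 0.29 (adjusted p = 0.0275, limma). None of 11 regulators of mitochondrial biogenesis was called in either line in limma. At an unadjusted p under 0.05, 2 were lower in the mild line, beside 1929 of 30854 features. In the severe line 2 were lower and 1 higher at that limit, beside 2144 and 2021 features. The largest value of a regulator was that of Ppargc1a, a coactivator of mitochondrial genes, at -0.44 (mild) and -0.35 (severe).

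Other gene families were counted in the same way. Of 71 cytosolic ribosomal protein genes, 1 rose and 1 fell in the severe line, with a median of 0.04, and those were Rpl3 (0.34) and its striated muscle paralog Rpl3l (-0.47). The nuclear genes whose symbols begin with Nduf, which encode subunits and assembly factors of respiratory complex I, were lower in the severe line in 12 of 44, with a median of -0.24, and in none of 44 in the mild line, with a median of -0.05. The difference between the families was not tested.

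**Figure D5:**
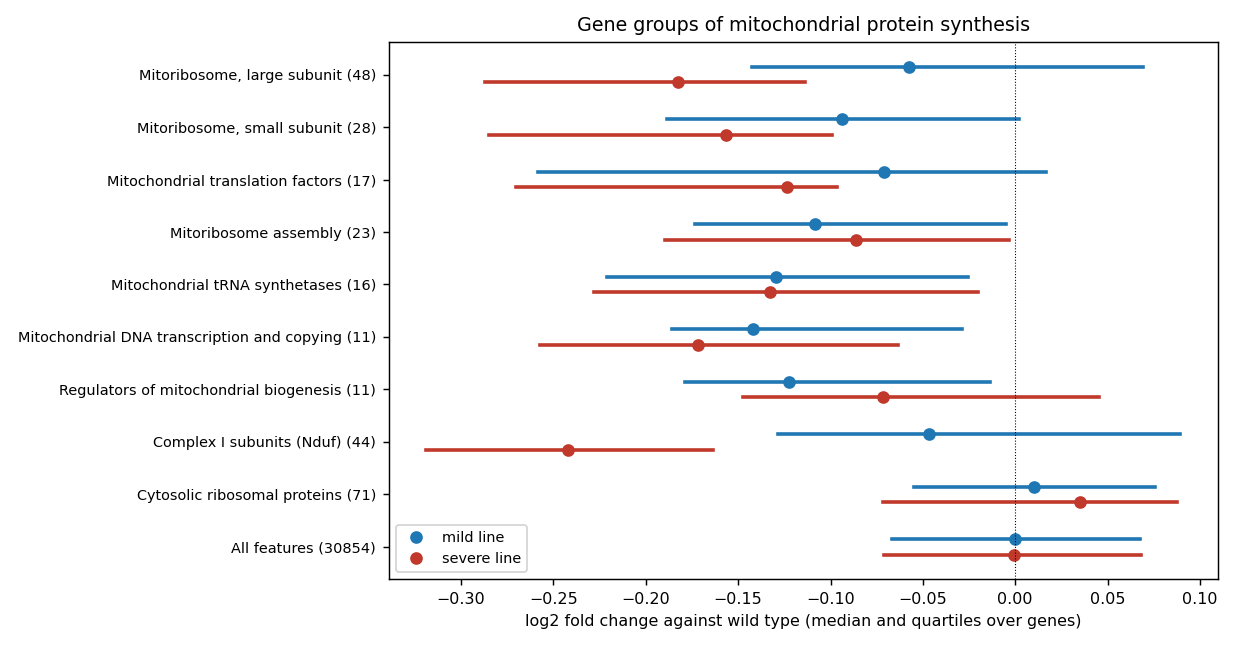
Median log2 fold change against wild type over the genes of each group (points, horizontal axis) with the quartiles over genes (bars), mild line in blue and severe line in red, and the number of genes in parentheses. All mitochondrial groups lie left of 0 in the severe line, from -0.07 (biogenesis regulators) to -0.24 (Nduf genes). Between these are translation factors (-0.12), assembly factors (-0.09), tRNA synthetases (-0.13) and mitochondrial DNA transcription and copying (-0.17). In the mild line the mitochondrial groups lie from -0.05 (Nduf genes) to -0.14 (mitochondrial DNA transcription and copying). Cytosolic ribosomal proteins and all features lie at 0.04 and 0.00 in the severe line.

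Markers of cell types moved in part with the lines. Of 7 heart muscle markers, Pln and Ryr2, both of calcium handling, were lower in both lines, and Actn2 was higher in the mild line. The summed signal of the 7 was 92381 to 99628 in the severe line and 94558 to 102566 in the mild line. It was 91209 to 94235 in the severe line's littermates and 96270 to 101042 in the mild line's. Between the littermates 1 of the 7 was called in limma, higher in those of the mild line. Of 7 fibroblast markers Col1a1 was higher in the severe line. The summed signal of these markers was 7181 to 7207 in the severe line and 6900 to 8579 in the mild line. It was 5405 to 6285 in the severe line's littermates and 6603 to 7051 in the mild line's. All 7 fibroblast markers had values above 0 in both lines. At an unadjusted p under 0.05, 4 of them were higher in the mild line, beside 1869 of 30854 features. In the severe line 2 were higher at that limit, beside 2021 features. Of 4 smooth muscle markers, Acta2 and Tagln were higher in the severe line and Acta2 was lower in the mild line, with sums of 8485 to 11423 in the severe line, 4356 to 4560 in the mild line, 7444 to 7584 in the severe line's littermates and 5217 to 5743 in the mild line's. Of 4 skeletal muscle markers Myot was higher in both lines. No endothelial, macrophage, red blood cell or brown fat marker was called in limma, of 6, 5, 3 and 3 measured. All 3 brown fat markers were below 0 in the severe line (median -0.41) and above 0 in the mild line (median 0.10). Their summed signal was 624 to 760 in the severe line and 892 to 1053 in the mild line. It was 681 to 1120 in the severe line's littermates and 720 to 786 in the mild line's. Between the lines, 2 of the 3 were higher in the mild line at an unadjusted p under 0.05, beside 1897 of 30854 features. The part of these markers in the change of the mitoribosomal genes was not tested.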

How the data were processed

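Total RNA from 12 hearts was measured on 12 Illumina arrays (MouseWG-6 v2.0). The raw files hold the authors' bead summary intensities, 1 per probe, exported with GenomeStudio (version not given in the sources used here), and no detection p-values. The authors also deposited a table of log2 values, background corrected and quantile normalized. The 45281 probe IDs of the raw files, 6 lines without an ID left out, were merged into 30854 features where values were identical on all arrays. Of the IDs, 34885 have 1 gene symbol in the platform annotation, 18 several and 10378 none, and 132 IDs in 79 features belong to the members.

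In R 4.3.3 with limma 3.58.1, raw intensities went through normexp background correction (offset 50), quantile normalization and a log2 transform. Means of the 6 wild type, 3 mild line and 3 severe line arrays were fitted, variances were moderated (eBayes), and p-values were adjusted by Benjamini-Hochberg within a comparison. The littermate comparison came from a fit of 4 groups. Every test is two-sided. The fit was tested on simulated data. Group medians over members carry no test. Depth has no meaning for arrays, and their number limits the precision. Figures were drawn with matplotlib 3.10.9.

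Named with values were all called members, the 4 largest rises and falls per subunit and line, the 3 brightest and dimmest per subunit, some genes of known role, members whose further features differ from the chosen one, and called genes of related lists. The lists hold other mitoribosomal proteins, translation factors, assembly factors, tRNA synthetases, mitochondrial DNA transcription, biogenesis regulators and cell type markers. The members and lists were chosen with earlier results of these data known. The list of mitochondrial DNA transcripts, the share of calls among bright features and the promoters printed were chosen after the data were seen. Alternatives were other background corrections and scalings, the table the authors deposited, a filter on dim features, array weights, other variance models, other treatments of features, other controls, the study's 2-fold rule and leaving out each array.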

Additional observations from a re-analysis of the deposited data

Results flagged for a closer look

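In 4 of 76 members, 1 wild type heart stood apart from the other 5 by Dixon's test, which chance does in about 1 in 20 groups. Mrpl34 was low in replicate 2 of the mild line's littermates (10.72, with the others from 10.93 to 11.04). Mrps18c was low in replicate 2 of the severe line's littermates (9.79, with the others from 9.98 to 10.08), and Mrps35 was high in the same heart (10.31, with the others from 9.96 to 10.06). Mrps9 was low in replicate 1 of the severe line's littermates (11.08, with the others from 11.33 to 11.41), and its call in both lines held without any 1 array. Against the severe line's own littermates, which include this heart, the severe line value of Mrps9 was -0.30 and was not called (adjusted p = 0.0599, limma).

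A difference between the lines was called by limma in 3 of 76 members. The mild line was higher by 0.39 for Mrpl14, 0.56 for Mrpl16 and 0.41 for Mrpl54. Measured against each line's own littermates, the difference was not called for any of the 3. For Mrpl14 it was 0.41 (SE 0.110, adjusted p = 0.24, limma) and for Mrpl16 it was 0.19 (adjusted p = 0.835, limma).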

How the results depend on the processing

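The 26 called values of members kept their sign in all 25 alternatives, apart from Mrps9 in the mild line, whose dimmest feature read 0.038. A background offset of 16 ended 25 of the 26 calls and left 0 members called in the mild line, 1 in the severe line and 0 between the lines, and a small subunit median of -0.12 in the mild line. Median scaling gave 36 members in the severe line (1127 features, against 1019) and 5 between the lines (346 features, against 422). The large subunit medians with it were -0.10 (mild) and -0.33 (severe), and the small subunit medians -0.14 and -0.28. Array weights and a fit of the compared groups alone each gave 5 members between the lines, beside 525 and 492 features. The 2-fold rule of the study gave 0 in each comparison, since no member changed that much. The cause of these shifts was not tested.

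Against own littermates, 1 member was called in the mild line, 11 in the severe line and 0 for the difference of the lines, beside 721, 716 and 82 features. The large subunit median in the severe line was -0.23 and the small subunit median in the mild line was -0.12. With a replicate block added, these were 1, 3 and 0 members, beside 621, 534 and 76 features, and the medians -0.23 and -0.12. Same-numbered hearts of a line and its littermates correlated from -0.24 to 0.06 in their deviations, and different-numbered hearts from -0.11 to 0.20. This gives no sign that the numbers pair the samples, but 3 hearts per group are too few to exclude it.

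Leaving out 1 array gave 1 to 5 members in the mild line (1, 2 and 3 without mild line replicates 1, 2 and 3, 2 and 3 without replicates 1 and 2 of its littermates, and 2 when littermate 1 or 3 of the severe line was omitted), 2 to 17 in the severe line and 0 to 6 between the lines (0 without severe line replicate 1 or mild line replicate 1, 1 without mild line replicate 2 or 3, and 6 when severe line littermate 2 was omitted). The medians in the mild line ran from -0.070 to -0.032 (large) and from -0.11 to -0.070 (small subunit). Signal over background limits 3 members, whose mean lay at or below the array median.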

Other observations

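The transcripts that the mitochondrial ribosome translates were measured in part. Of 8 mitochondrial DNA transcripts, COX2, which encodes a core subunit of cytochrome c oxidase, read 11.77, 12.09 and 12.41 in the severe line and 12.29, 12.89 and 13.03 (lowest, median and highest) in wild type hearts, a log2 fold change of -0.71 (SE 0.16, adjusted p = 0.0176, limma). ND4L, which encodes a small core subunit of complex I, read 8.57, 8.73 and 8.97 against 9.01, 9.80 and 10.48, a log2 fold change of -0.99 (SE 0.25, adjusted p = 0.0374, limma). The others had values of -0.21 (ATP6), -0.20 (ND1), -0.09 (ND4), 0.03 (ND6), 0.12 (CYTB) and 0.36 (ND5) and did not pass. The litters themselves differed in these transcripts, with a median of 0.31 between the mild and the severe line's littermates and 7 of 8 values above 0. At an unadjusted p under 0.05, where 1506 of 30854 features were higher, 5 of the 8 were, none of them called by limma. Averaged over the 8, the severe line's littermates lay 0.14, 0.09 and 0.23 below the wild type mean and the severe line 0.29, 0.20 and 0.14 below it. Against their own littermates COX2 and ND4L had severe line values of -0.54 and -0.70 (adjusted p = 0.138 and 0.244, limma) and were not called. In the mild line none was called by limma, none reached an unadjusted p under 0.05, and the values ran from -0.13 to 0.36. ND6 was near the array median. The list was added after the data were seen.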
